A study of Mus musculus with 7 samples.

Results

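Macrophages_2 is 1 of the 15 clusters that the authors named among the pancreatic cells of WT mice. Its members are all cells that carry this name in the deposited cell annotation, 155 of 10653 WT cells and of 58473 cells in the series. WT mouse 1 gave 59 of its 4327 cells, a share of 1.36% (exact 95% binomial interval 1.04 to 1.76), and WT mouse 2 gave 96 of its 6326 cells, a share of 1.52% (1.23 to 1.85), and these intervals cover the error from counting cells only. Single-cell RNA of dissociated pancreas was sequenced from 2 WT, 3 i4F and 2 caerulein mice, all 2 months old and labelled C57BL/6 (C57BL/6J.Ola.Hsd for i4F in the methods), with 1 library per mouse. WT and i4F mice drank doxycycline at 1 mg/ml for 7 days. The i4F mice (i4F-B) are heterozygous for the transactivator rtTA at Rosa26 and, in Pparg, for the reprogramming genes Oct4, Sox2, Klf4 and c-Myc, which doxycycline switches on in all tissues and not in one cell type. The caerulein (CER) mice were wild type, were injected with 100 µg/kg of this cholecystokinin analogue 7 times a day on 2 days, and had no doxycycline listed, so that caerulein and the absence of doxycycline cannot be told apart.

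Macrophages take up and digest dying cells and microbes, depend on the receptor encoded by Csf1r, and in many tissues make the complement proteins of the C1q complex. Conventional dendritic cells depend on the receptor Flt3, take up antigen in the tissue, and present peptides to T cells on MHC class II molecules, and they switch on Ccr7 when they leave for the lymph node. Monocytes and neutrophils come from the blood and are known for Ly6c2 and for S100a8 and S100a9, respectively.

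The libraries held 15469018 to 64784216 unique molecular identifiers (UMIs, each 1 counted RNA molecule), and rtTA stood at 42.5 to 48.3 CPM (counts scaled to the same total in each sample) in the i4F libraries and at 0.0585 to 0.951 in the others. The median Macrophages_2 cell had 6300 UMIs in WT mouse 1 and 4729.5 in WT mouse 2, which ranked 3 and 2 by depth among the WT clusters. No Macrophages_2 barcode occurred among the Macrophages_2 cells of the other WT mouse, and 1 barcode of WT mouse 1 was present in the library of WT mouse 2. Doublets were kept, and Scrublet called 0 of the 59 and 3 of the 96 cells, but in WT mouse 1 it called 0.0462% of all cells, too few for its calls to be used.

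The name of the cluster was checked against C1qa, a C1q chain, Csf1r, and H2-Aa, the alpha chain of the MHC class II molecule I-A, and the data went against it for C1qa. C1qa stood at 143 CPM in WT mouse 1 and 2.13 in WT mouse 2, against 6284 and 6146 in Macrophages_1, the other WT cluster named macrophages. Of the 53 C1qa UMIs of WT mouse 1, 50 came from 1 cell, and all 56 C1qb UMIs there came from 1 cell. A UMI of C1qa, C1qb or C1qc was found in 2 of 59 (3.39%) and 8 of 96 (8.33%) cells, against 45 of 45 and 417 of 418 in Macrophages_1 and 2.63% and 8.61% of acinar cells with at least 1000 UMIs, which should lack these genes, so that the share was at background. Csf1r stood at 70.3 and 130 CPM against 605 and 565 in Macrophages_1. H2-Aa stood at 15466 and 13817 CPM, higher than in any other WT cluster in both mice, with 10516 and 9203 in Macrophages_1 and 5823 and 3500 in the B lymphocyte cluster. Thus H2-Aa was at its highest in these cells, and Csf1r ranked 2 of the 15 clusters in both mice. C1qa ranked 3 of the 15 clusters in WT mouse 1 and last in WT mouse 2. The cells are therefore called by the cluster's label only, and no cell type name is given to them.

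**Figure D1:**
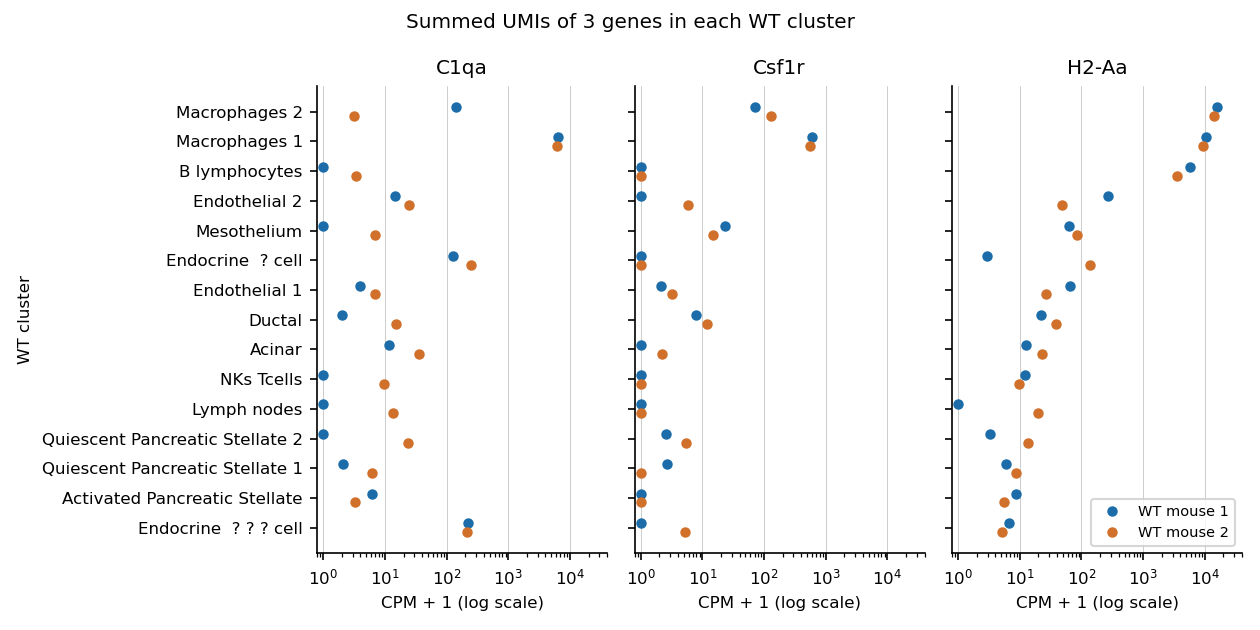
Each point is 1 WT mouse. The x axis gives the level of C1qa, Csf1r or H2-Aa (CPM plus 1, log scale) over the summed UMIs of each WT cluster (y axis, with the question marks that the deposited names of both endocrine clusters hold). Macrophages_2 holds the highest H2-Aa, and its C1qa lies far below the 6284 and 6146 CPM of Macrophages_1.

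H2-Aa (chr17:34282744-34287823 in GRCm38, minus strand) divided the cluster. No UMI of it was counted in 38 of the 155 cells, 20 of 59 (33.9%) in WT mouse 1 and 18 of 96 (18.75%) in WT mouse 2. Of the 117 cells with H2-Aa UMIs, 112 lay above 1000 CPM and only 5 below, with medians of 19254 CPM in WT mouse 1 and 15294 in WT mouse 2. Few cells therefore lay between both kinds. The cells without H2-Aa were shallower, with medians of 2219 and 2143 UMIs against 7556 and 5294.5, and their summed UMIs allow for up to 54.4 and 73.9 CPM of H2-Aa (3 counts of the total). When each cell was thinned to 1000 UMIs, the share with H2-Aa was 66.1% and 80.4%, against 66.1% and 81.2% before thinning, with 0 and 4 shallower cells left out. Acinar cells with at least 1000 UMIs, which should lack the gene, held an H2-Aa UMI in 1.32% and 3.35% of cells at median depths of 1520 and 1583 UMIs. In Macrophages_1, 5 of 45 and 74 of 418 cells held none. This division was chosen after the values were seen and uses the cells' own counts, so its results within WT are a description without a test. Fits between conditions on cells chosen by it are given only as alternatives, and nothing is drawn from them.

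**Figure D2:**
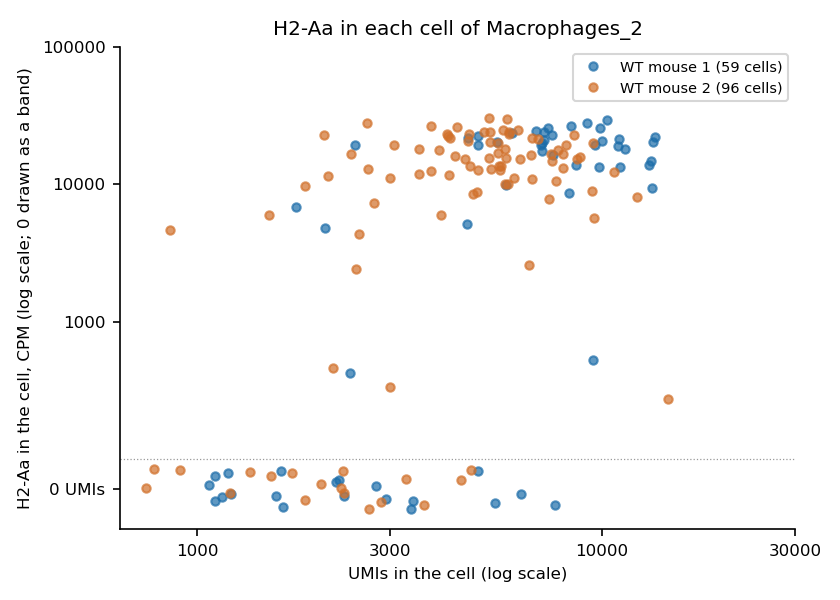
Each point is 1 cell of Macrophages_2, coloured by WT mouse. The x axis gives the cell's UMIs and the y axis its H2-Aa level in CPM (both log scales), and cells with 0 UMIs of H2-Aa are drawn as a band under the dotted line, spread at random in height within it. The 38 cells in the band have fewer UMIs by the median of each mouse, with 7636 in 1 of them. Cells of the same depth occur above 1000 CPM.

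Over the 6387 genes compared between cells without and with H2-Aa UMIs, 310 (4.85%) were at least 2-fold higher and 397 (6.22%) at least 2-fold lower in both mice without H2-Aa, with 20 CPM added to each level. All 10 genes of the MHC class II list were lower there by this measure, with a limit for Ciita given below. All of them but H2-DMa and Cd74 held at most 2 UMIs in the cells without H2-Aa. They passed the filter on UMIs through the cells with H2-Aa alone, so that the filter favoured this direction. H2-Aa itself fixed the division. H2-Ab1, the beta chain of I-A, had 0 UMIs in both mice against 18052 and 13845 CPM. H2-Eb1, the beta chain of I-E, stood at 0 and 49.2 CPM against 15416 and 13534. Cd74, the invariant chain that guards the peptide groove, stood at 616 and 813 CPM against 44596 and 47310. Ciita, the transactivator of the class II genes, had 0 UMIs in the 38 cells and was found in 41 of the 117, at 105 and 49.0 CPM, the latter under the limit of 73.9 CPM that 0 UMIs allow in WT mouse 2.

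The promoters of these genes are shown because all 10 genes of the list passed 2-fold lower in the cells without H2-Aa. The limits given above, for Ciita in WT mouse 2 and for the filter on UMIs, apply here too. In the RefSeq promoter table used here (build GRCm38.p6), 7 of the 10 listed genes were matched, and the 120 bases before the start were searched on both strands for GATTGG, the core of the Y box that NF-Y binds. The motif was in the windows of 6 of the 7 genes, against 9.67% of the 32851 promoter windows of the same length, and a match of these letters is a description and not a bound site. H2-DMa, the seventh, held none. The starts are those of RefSeq. Ensembl positions, used for H2-Aa above, start H2-DMb1, H2-DMb2 and H2-Oa earlier, at 34153072, 34143307 and 34092340. By these, the windows of H2-DMb1 and H2-DMb2 lie mostly or wholly inside the gene and that of H2-Oa in part. All windows lie on chromosome 17, 5′ to 3′ on the strand of the gene, with the motif in capitals, also where it lies on the other strand and so reads in reverse complement, as in the last match of H2-Eb1.
H2-Aa (chr17:34287824-34287943, minus strand): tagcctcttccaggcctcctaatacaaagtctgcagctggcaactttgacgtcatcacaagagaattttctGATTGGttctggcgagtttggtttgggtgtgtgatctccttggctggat
H2-Eb1 (chr17:34305747-34305866, plus strand): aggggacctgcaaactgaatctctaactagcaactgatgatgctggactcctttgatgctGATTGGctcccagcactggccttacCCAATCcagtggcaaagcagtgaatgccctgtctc
H2-DMb1 (chr17:34153071-34153190, plus strand): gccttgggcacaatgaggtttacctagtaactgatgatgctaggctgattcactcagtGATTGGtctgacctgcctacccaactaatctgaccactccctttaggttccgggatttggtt
H2-DMb2 (chr17:34145129-34145248, plus strand): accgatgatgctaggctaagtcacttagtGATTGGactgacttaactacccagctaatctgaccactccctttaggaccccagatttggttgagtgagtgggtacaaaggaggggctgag
H2-Oa (chr17:34092259-34092378, plus strand): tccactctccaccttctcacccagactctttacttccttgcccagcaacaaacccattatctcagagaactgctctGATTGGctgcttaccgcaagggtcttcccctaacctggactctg
H2-Ob (chr17:34238785-34238904, plus strand): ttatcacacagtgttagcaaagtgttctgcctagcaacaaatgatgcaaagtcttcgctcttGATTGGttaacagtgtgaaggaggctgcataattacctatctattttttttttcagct

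The 38 cells without H2-Aa held genes of monocytes and neutrophils. Of the monocyte list, 9 of 12 genes were higher there in both mice and none lower. Ly6c2, a surface marker of classical monocytes, stood at 435 and 468 CPM against 15.9 and 18.7 in the cells with H2-Aa. Plac8, high in monocytes and some lymphocytes, stood at 3208 and 2118 CPM against 175 and 166. Ace, Spn and Treml4, known from the patrolling monocytes, were found in 11, 11 and 10 of the 38 cells and in 6, 7 and 13 of the 117. Lyz2, the lysozyme of myeloid cells, stood at 26227 and 21990 CPM against 1110 and 2652, so that the levels of both kinds of cell did not overlap between mice.

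Of the 9 neutrophil genes listed, 5 held enough UMIs to be compared, nearly all of them in the cells without H2-Aa, so that their direction was set by this filter and is given by counts. The most widely found was Csf3r, the receptor for granulocyte colony-stimulating factor, in 13 of the 38 cells and 1 of the 117. S100a9, a calcium-binding protein of neutrophil granulocytes and monocytes, had 226 UMIs in 6 cells of WT mouse 1, 66 UMIs in 2 cells of WT mouse 2 and none in the 117 cells with H2-Aa. S100a8, its partner, had 141 UMIs in 8 cells and 14 UMIs in 1 cell. Retnlg was found in 7 of the 38 cells. The genes Ngp, Camp and Ltf of immature neutrophils had 0 UMIs in the whole cluster. Chil3, a chitinase-like protein of monocytes, had 552 UMIs in WT mouse 1, of which 550 lay in 3 cells.

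Csf1r, the receptor used to mark the cluster, was at a higher level in the cells without H2-Aa. It was found in 23 of the 38 and in 20 of the 117 cells, with levels of 272 and 640 CPM against 35.0 and 81.7, and by number 41 of its UMIs lay in cells without and 46 in the more numerous and deeper cells with H2-Aa. Fcgr1, the high-affinity IgG receptor, stood at 417 and 123 CPM against 9.54 and 0. Of the macrophage list, 7 of 12 compared genes were higher and none lower in the cells without H2-Aa, while C1qa had 0 UMIs and C1qb 1 UMI in them.

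**Figure D3:**
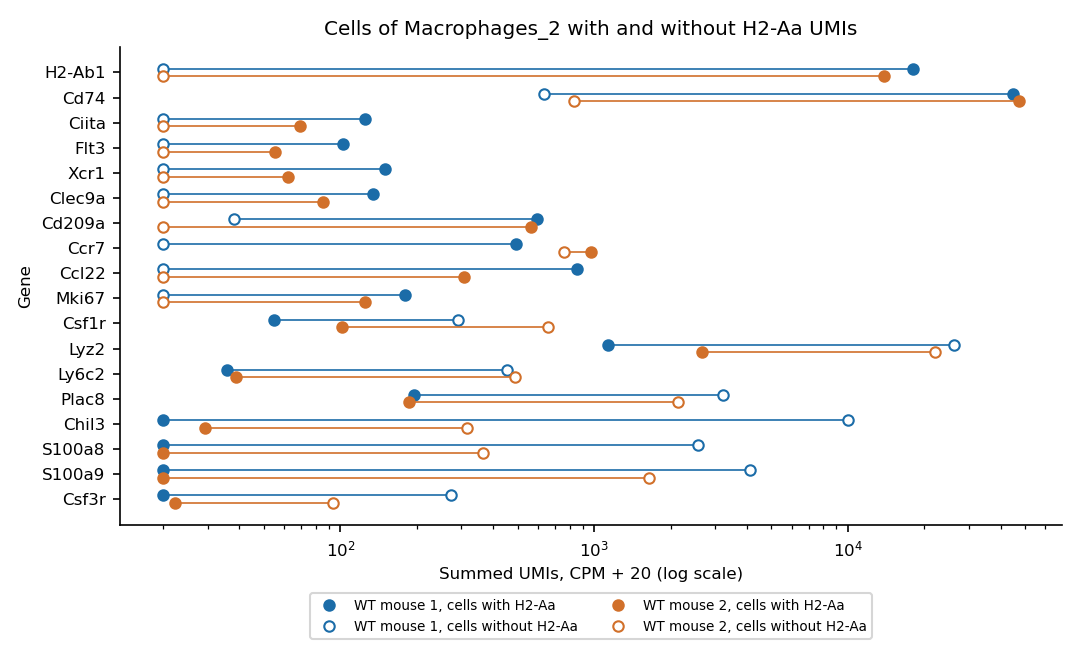
For each gene (y axis) the level in summed UMIs (x axis, CPM plus 20, log scale) is given for the cells of Macrophages_2 with H2-Aa UMIs (filled circles) and without them (open circles), with 1 line per WT mouse. Class II, dendritic cell and cell cycle genes lie to the right in the filled circles, and Csf1r, Lyz2 and the monocyte and neutrophil genes in the open ones. Ccr7 of WT mouse 2 is high in both, and its level without H2-Aa comes from 1 cell.

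The 117 cells with H2-Aa held the genes known from dendritic cells. Flt3, the receptor for the growth factor of dendritic cells, was found in 30 of the 117 and in 0 of the 38 cells, at 82.7 and 35.0 CPM. Xcr1, the chemokine receptor of the cross-presenting (cDC1) lineage, was found in 27 and 0 cells, and Clec9a, its receptor for dead cells, in 32 and 0. Cd209a, a lectin of the cDC2 lineage, was found in 46 and 1, and Mgl2, another lectin of that lineage, in 39 and 0. Ccr7, the receptor that guides cells to lymph nodes, was found in 45 and 1 cells, and Ccl22, a chemokine of migrating dendritic cells, in 37 and 0. Many single genes of these lists, Flt3 and Xcr1 in WT mouse 2 among them, stood under the 54.4 and 73.9 CPM that 0 UMIs allow in the cells without H2-Aa, so that 0 UMIs do not show them lower there, and the lists are given by their sums. The shared list summed to 356 and 245 CPM with and 18.1 and 24.6 without H2-Aa, the cDC1 list to 2280 and 1284 against 254 and 320, and the cDC2 list to 2124 and 1828 against 199 and 222. The migratory list summed to 1564 and 2276 CPM with H2-Aa and 72.5 and 1182 without. Only 2 of its 8 genes were at least 2-fold lower without H2-Aa in both mice, and 0 were higher. In WT mouse 2 Ccr7 stood at 739 CPM without and 948 with H2-Aa, the former from 1 cell. The proliferation gene Mki67 was found in 30 and 0 cells, and the 9 cell cycle genes summed to 1043 and 927 CPM with H2-Aa and 36.2 and 49.2 without. Since the cells with H2-Aa hold more UMIs each, a cell of this kind had more chance to show any of these genes, and the CPM levels are the better measure.

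Genes of the different dendritic cell lineages were then counted cell by cell. Xcr1 or Clec9a was found in 18 of 59 and 22 of 96 cells (30.5% and 22.9%), and in 0 of 45 and 2 of 418 cells of Macrophages_1, which allows a share of up to 7.87% by the exact 95% interval in WT mouse 1. In cells thinned to 1000 UMIs the shares were 11.9% and 7.61% against 0% and 0%. Cd209a was found in 17 and 30 cells, and both sets together in 2 and 2 cells. Ccr7, Fscn1 or Ccl22 was found in 22 and 35 cells, in 7 and 5 of them together with Xcr1 or Clec9a and in 10 and 16 together with Cd209a. None of the cells held all 3 sets, and 21 and 32 cells held none, at median depths of 2241 and 2582 UMIs. The B lymphocyte cluster also held Ccr7, Fscn1 or Ccl22, in 59.6% and 47.7% of its cells at median depths of 2886 and 2066 UMIs (30.4% and 33.3% when thinned, against 20.3% and 32.6% in Macrophages_2), and no UMI of Xcr1, Clec9a or Cd209a, so that the Ccr7 set does not mark these cells alone. Xcr1, Clec9a and Cd209a were also not found in the 152 and 209 acinar cells, of which 0 and 4 held the Ccr7 set.

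Other genes of the lists were summed over the cells with 1 set alone, which are again cells chosen by their own counts, over both mice. In the 24 cells with Xcr1 or Clec9a alone, Irf8, the transcription factor of the cDC1 lineage, stood at 1488 CPM and the amidase gene Naaa at 945, with 0 UMIs of Mgl2 and Clec10a. In the 17 cells with Cd209a alone, Mgl2 stood at 1583 CPM and Clec10a, a further lectin, at 393, with 11.2 CPM of Irf8. In the 19 cells with the Ccr7 set alone, Relb, an NF-kappaB subunit, stood at 462 CPM and Il12b, the p40 chain of interleukin 12 and interleukin 23, at 835, with 0 UMIs of Naaa. Not every gene of a lineage was limited to its own set. Batf3, a transcription factor of the cDC1 lineage, stood at 214, 135 and 121 CPM in the 3 sets in this order, Irf4, a factor of the cDC2 lineage, at 5.22, 78.6 and 98.9, and Sirpa at 5.22, 89.8 and 65.9. Il12b also stood at 198 CPM in the Xcr1 or Clec9a set, Naaa at 213 in the Cd209a set and Irf8 at 209 in the Ccr7 set. H2-Aa was high in each set, at 14086, 17585 and 14592 CPM.

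Against Macrophages_1, 9491 genes were compared, and Macrophages_2 was at least 2-fold higher in both mice for 165 genes (1.74%) and at least 2-fold lower for 258 (2.72%), with 20 CPM added and medians over all genes of 0.01 and −0.05 on the log2 scale. Macrophages_1 itself held 45 cells in WT mouse 1 and 418 in WT mouse 2, with medians of 4766 and 2010 UMIs. In 1 mouse alone, 430 genes were higher and 442 lower in WT mouse 1, and 376 and 550 in WT mouse 2, and the ratio of 13 genes passed 2-fold in opposite directions. The clusters were made from these genes in these cells, so no test was run. The numbers depend on the constant, with 361 higher and 624 lower at 5 CPM added and 79 and 147 at 50. In each list below, counts are of genes past 2-fold in both mice, to be read against these shares of all genes. A gene with under 10 UMIs in 1 cluster passed the filter through the other alone, so that the filter favoured its direction. Among the lower genes these include Maf, Mertk and Ms4a7 of the macrophage list. Lyve1, Folr2, Cd163, Pf4, Cbr2 and Cd209g of the resident list are others.

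Among macrophage genes, 14 of 15 were lower in Macrophages_2 than in Macrophages_1 and none was higher, with a list median of −2.65. Apoe, which carries lipids, stood at 425 and 567 CPM against 8268 and 18508. Ms4a7, a membrane protein of macrophages, stood at 2.70 and 6.40 CPM against 580 and 655, and Adgre1, which encodes F4/80, at 13.5 and 17.1 against 313 and 278. Cd68, the exception, stood at 281 and 345 CPM against 925 and 616. Mertk, the receptor for dying cells, had 0 UMIs, and Macrophages_1 was at least 13.1-fold higher (floor of 3 counts over both mice).

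Of the genes of resident tissue macrophages, 10 of 12 compared were lower and none higher. Pf4, a chemokine, stood at 2.70 and 6.40 CPM against 2009 and 2482. Mrc1, the mannose receptor, stood at 27.0 and 38.4 CPM against 466 and 897, and Lyve1, the hyaluronan receptor, at 2.70 and 0 against 121 and 339. Folr2, a folate receptor, had 0 UMIs, with Macrophages_1 at least 107-fold higher. Cd209f and Cd209g also had 0 UMIs in Macrophages_2, against 14.2 and 468 CPM and 24.9 and 222 CPM in Macrophages_1, whereas Vsig4 and Marco held too few UMIs in either cluster to be compared.

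The MHC class II genes were high in both clusters, and 3 of 10 were at least 2-fold higher in Macrophages_2. These 3 passed the filter on UMIs through Macrophages_2 alone, so that the filter favoured this direction. H2-Oa stood at 200 and 209 CPM against 7.11 and 1.99, H2-Ob at 116 and 91.7 against 7.11 and 3.98, and H2-DMb2 at 230 and 179 against 0 and 5.97. H2-Oa and H2-Ob encode the chains of H2-O, which restrains the peptide-loading protein H2-M, and H2-DMb2 encodes a beta chain of H2-M. It lies beside its near copy H2-DMb1, which stood at 1095 and 904 CPM against 644 and 598, and reads of such copies can be split between them in counting. Summed over the list, the class II genes stood at 84821 and 84484 CPM against 54521 and 52750.

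Dendritic cell genes differed by list. Of the shared list 3 of 6 were higher and none lower. These 3, Flt3, Dpp4 and Kmo, passed the filter on UMIs through Macrophages_2 alone, so that the filter favoured this direction. The same held for Xcr1 and Clec9a of the cDC1 list and for Ccl17 and Il4i1 of the migratory list. Flt3 stood at 70.3 and 32.0 CPM against 0 UMIs in Macrophages_1, at least 21.9-fold higher by the mean and 13.7-fold in the lower mouse. Zbtb46, also of this list, stood at 18.9 and 25.6 CPM against 3.56 and 0.994 and did not pass 2-fold in both mice. Of the cDC1 list 5 of 9 were higher, with Irf8 at 663 and 493 CPM against 192 and 153, and Naaa at 546 and 264 against 46.2 and 32.8. Of the cDC2 list 1 of 8 was higher and 1 lower. The former was Cd209a, at 492 and 499 CPM against 0 and 39.8, and the latter Sirpa, an inhibitory receptor also found on macrophages, at 35.2 and 66.1 against 181 and 193. Mgl2 stood at 411 and 525 CPM against 434 and 407, so that it did not set the clusters apart. Of the migratory list 4 of 8 were higher, with Ccr7 at 400 and 930 CPM against 28.4 and 1.99. Of the 3 genes compared of plasmacytoid dendritic cells, which make interferon, none passed 2-fold in both mice (list median −0.72).

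Among the 12 genes most raised over Macrophages_1 were also Il1r2, the decoy receptor of interleukin 1, at 847 and 269 CPM against 17.8 and 3.98, Napsa, an aspartic protease, at 879 and 783 against 78.2 and 20.9, and Itgb7, an integrin chain, at 168 and 249.5 against 3.56 and 0.994. Napsa was at a like level on both sides of the H2-Aa division, at 884 and 773 CPM with and 852 and 886 without. S100a9 was also among the 12, from the 8 cells named above.

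Monocyte genes were higher for 4 of 12 and neutrophil genes for 2 of 5 compared. S100a9 and Treml4 had 0 UMIs in Macrophages_1 and passed the filter through Macrophages_2 alone, so that they could not come out lower. The UMIs of the higher neutrophil genes, S100a8 and S100a9, lay in the cells without H2-Aa alone, and of the monocyte genes Plac8 had 263 UMIs in them and 126 in the cells with H2-Aa, and Treml4 19 and 17. Chemokine genes were lower for 8 of 12, with Ccl4 at 1977 and 1164 CPM against 19360 and 15447 and Ccl2 at 325 and 119 against 4502 and 3725. Both recruit leukocytes. Inflammatory cytokine genes were lower for 5 of 11, with Tnf at 127 and 57.6 CPM against 1647 and 1020, whereas Il1b stood at 5680 and 3517 against 5854 and 1977. Lysosomal genes were lower for 7 of 11, with the cathepsin gene Ctsd at 208 and 213 CPM against 1750 and 1344. Interferon-stimulated genes were lower for 6 of 10, with Isg15 at 192 and 186 CPM against 1323 and 845. Of the 9 cell cycle genes none passed 2-fold in both mice. The list summed to 893 and 851 CPM in Macrophages_2 and to 1117 and 170 in Macrophages_1.

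Against the WT cells outside both clusters, 522 of 19197 genes (2.72%) were at least 2-fold higher in both mice. The 12 with the highest ratio were Il1b, Lyz2, H2-Ab1, H2-Eb1, H2-Aa, Cd74, Tyrobp, Cd83, Plbd1, Fcer1g, Alox5ap and H2-DMb1. Plbd1, a phospholipase B-like protein, stood at 774 and 802 CPM against 0.804 and 0.574 in these cells and 185 and 121 in Macrophages_1. The T and NK cell list summed to 0 and 10.7 CPM and the B cell list to 13.5 and 113, with Ms4a1 and Pax5 at 0 UMIs and 85.3 of the 113 CPM from 1 cell with Ly6d.

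**Figure D4:**
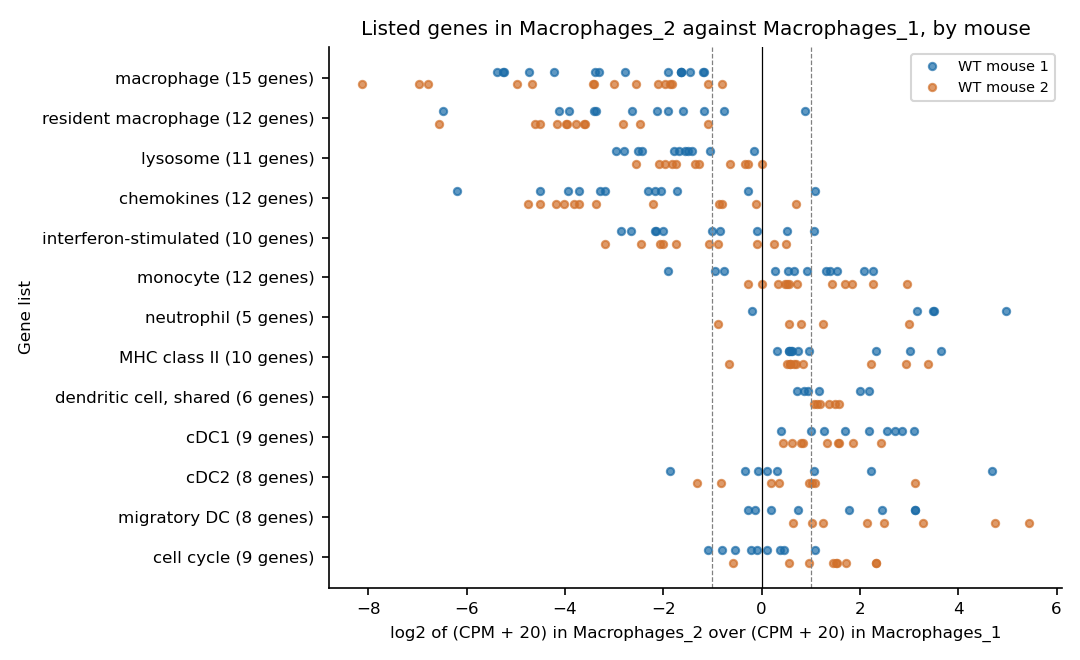
Each point is 1 gene of a list (y axis, number of genes compared in brackets) in 1 WT mouse, and the x axis gives the log2 ratio of CPM plus 20 in Macrophages_2 over Macrophages_1. Dashed lines mark 2-fold. Macrophage, resident macrophage and chemokine genes lie to the left, except Timd4 in WT mouse 1 and Cxcl9 in both mice, and most, but not all, shared dendritic cell, cDC1, migratory and class II genes to the right of 0, with the cDC2 genes on both sides. The cell cycle genes of WT mouse 2 lie higher than those of WT mouse 1.

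Each condition was clustered on its own by the authors, so whether cells of the other conditions match Macrophages_2 had to be set by a rule, and a difference in condition and a difference in which cells a cluster holds cannot be told apart. The rule first planned took the cluster named macrophages with the most C1q, which was Macrophages_1 in i4F (2921, 2735 and 183 cells) and in CER (3890 and 2076 cells). Since Macrophages_2 holds little C1q, these are unlike cells. UMIs were summed per mouse and tested with edgeR's quasi-likelihood test in 1 fit of all 7 mice, with Benjamini-Hochberg adjustment over all genes. Of 11476 genes, 1572 (13.7%) were called for i4F and 2025 (17.6%) for CER, and both comparisons share the WT mice. All 10 class II genes were lower in both C1q clusters. Cd209a stood at 0, 0.543 and 2.06 CPM in the i4F mice and had 0 UMIs in the CER mice, against 492 and 499 in WT (log2 fold change −10.46 ± 0.64, SE, adjusted p = 0.000137, for i4F). Without WT mouse 1, 731 and 988 genes were called. Without WT mouse 2 or i4F mouse 1, 888 and 889 were called for i4F, and without CER mouse 1 or 2, 745 and 1009 for CER. When all clusters named macrophages were summed in every condition, the calls fell to 1 and 683.

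The other rule, added after seeing these values, took the cluster whose summed profile correlated most with Macrophages_2 over the 4709 genes at 20 CPM or more there. In i4F this was Macrophages_3 (215, 87 and 282 cells, Spearman's rho 0.858 over genes). In CER it was the cluster named B_lymphocytes (994 and 398 cells, rho 0.842), in which the 8 B cell genes summed to 291 and 335 CPM, against 13.5 and 113 in Macrophages_2. The choice by likeness lowers the number of differences that can be found. H2-Aa stood at 11781, 7114 and 10544 CPM in i4F and 7645 and 7147 in CER, against 15466 and 13817 in WT (adjusted p = 0.308 and 0.0846, edgeR). Cells without H2-Aa made up 2.33%, 8.05% and 1.42% of the i4F cluster and 19.4% and 18.3% of the CER cluster.

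With this rule, 7 of 6184 genes (0.113%) were called for i4F, all higher, and 37 (0.598%) for CER, 15 higher and 22 lower, with 971 and 1107 genes at an unadjusted p under 0.05. DESeq2 called 126 and 116. The library names open with AL for WT mouse 1 and all i4F mice and with AM for WT mouse 2 and both CER mice. With this library name series as a term, 29 and 15 genes were called. Between i4F and CER, series and condition cannot be told apart. All log2 fold changes below are from the edgeR fit, with their SE and Benjamini-Hochberg adjusted p, and both comparisons again share the WT mice.

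Of the macrophage list, 1 of 14 genes tested was called higher in each comparison, C1qb in both, and of the list of lipid-associated macrophages 1 of 9, Trem2 in both, with Cd9 of that list lower in CER. Arg1, the arginase of alternatively activated macrophages, had 0 UMIs in both WT mice and stood at 525, 1103 and 284 CPM in i4F (adjusted p = 0.0262) and at 86.8 and 81.1 in CER, where it was not called. The i4F mean was at least 178-fold higher than the floor of 3 counts over both WT mice. Ctsd stood at 208 and 213 CPM in WT, at 976, 1290 and 1055 in i4F (2.40 ± 0.21, adjusted p = 0.00703) and at 2052 and 2210 in CER (3.16 ± 0.22, adjusted p = 0.00122). C1qb stood at 151 and 40.5 CPM in WT, at 2445, 1839 and 3690 in i4F (4.84 ± 0.58, adjusted p = 0.0275) and at 1943 and 1707 in CER (4.10 ± 0.58, adjusted p = 0.0311). For each of these genes, all values of the other conditions lay above both WT values. The rule that named them for i4F, and C1qb also for CER, took only called genes without such overlap. Their separation there was thus fixed by the choice and is not a result.

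Trem2, a lipid receptor of macrophages, stood at 27.0 and 10.7 CPM in WT, 184, 124 and 181 in i4F (3.19 ± 0.41, adjusted p = 0.0275) and 281 and 317 in CER (3.85 ± 0.43, adjusted p = 0.0139). Its i4F value turned to −0.63 when cells with any C1q UMI were left out and became 5.37 when only cells with H2-Aa UMIs were kept. Both are choices by the cells' own counts that leave out unlike shares of the cells in WT and i4F, so nothing is drawn from either. No C1q UMI was found in 57 of 59 and 88 of 96 cells in WT, 102 of 215, 51 of 87 and 137 of 282 in i4F, and 630 of 994 and 296 of 398 in CER.

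Acinar cells with at least 1000 UMIs, which should lack these genes, also held UMIs of them. A C1q UMI was found in 2.63% and 8.61% of them in WT, 43.7%, 30.2% and 9.53% in i4F and 35.8% and 13.8% in CER, at median depths of 1520 and 1583, 4226, 3316.5 and 1906, and 3285 and 2302.5 UMIs. In cells thinned to 1000 UMIs the C1q shares of acinar cells were 0.658% and 5.26% in WT, 18.3%, 13.8% and 4.2% in i4F and 17.8% and 8.4% in CER, against 3.39% and 4.35% in WT Macrophages_2 (1.69% and 0% in another random draw), 43.2%, 37.2% and 48.7% in i4F Macrophages_3 and 34.0% and 33.5% in the CER cluster. Those of Trem2 were 1.83%, 2.4% and 0.4% and 6.8% and 4.0% in acinar cells, against 9.71%, 6.41% and 13.4% and 14.7% and 21.5%. Those of Arg1 were 5.76%, 5.2% and 0% and 2.2% and 2.8% in acinar cells, against 11.7%, 20.5% and 4.33% and 4.14% and 4.13%. In every i4F and CER library these thinned shares were higher in the compared cluster than in acinar cells. For Arg1 in CER mouse 2 they rest on 10 of 242 and 14 of 500 cells. Before thinning, the C1q shares were 52.6%, 41.4% and 51.4% in i4F Macrophages_3 and 36.6% and 25.6% in the CER cluster. That of CER mouse 1 was thus close to the 35.8% of its acinar cells. The cells differ in depth, so neither kind of share settles the part of free RNA. How much of the CPM differences of these genes from WT comes from free RNA was not tested.

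Reg3g, an antimicrobial lectin that acinar cells make under stress, stood at 2.70 and 4.27 CPM in WT, 82.9, 156 and 140 in i4F (5.08 ± 0.51, adjusted p = 0.0137) and 50.4 and 65.2 in CER (3.77 ± 0.56, adjusted p = 0.0324). The 20 genes most particular to WT acinar cells included Reg3g. They summed to 1452 and 953 CPM in WT, 1446, 7795 and 12453 in i4F and 889 and 1031 in CER. Gm2663, not among these 20, stood at 2.70 and 0 CPM in WT, 0 in every i4F mouse and 216 and 157 in CER. It was called higher in CER (6.97 ± 0.69, adjusted p = 0.0206). The part of free acinar RNA in the Reg3g and Gm2663 values was not tested. Isg15, a ubiquitin-like protein induced by interferon, stood at 192 and 186 CPM in WT and at 1035, 718 and 653 in i4F (2.10 ± 0.27, adjusted p = 0.0275), against 146 and 166 in CER.

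Of the 22 genes lower in CER, some are given here, chosen by the size of the change or after their values were seen. Ccl22 stood at 711 and 262 CPM in WT and at 11.03 and 8.81 in CER (−5.70 ± 0.58, adjusted p = 0.00913), with 158, 270 and 276 in i4F. Cd274, the checkpoint ligand PD-L1, stood at 105 and 66.1 CPM against 20.2 and 15.9 (−2.34 ± 0.38, adjusted p = 0.0394), and Cd40, the receptor for T cell help, at 86.6 and 64.0 against 28.0 and 22.9 (−1.68 ± 0.29, adjusted p = 0.0473). Treml4 stood at 32.5 and 51.2 CPM against 1.47 and 1.76 (−4.81 ± 0.61, adjusted p = 0.0206). It was the only 1 of 12 monocyte genes tested that was called. That list summed to 2967 and 966 CPM in WT and 1262 and 1665 in CER, so that the sums overlapped. The Y-linked gene Ddx3y was also called, at 135 and 107 CPM in WT against 32.7 and 38.8 in CER (−1.94 ± 0.28, adjusted p = 0.0311), with 74.7, 101 and 78.1 in i4F. The labels do not give the sex of the mice, and its part in these values was not tested. Ccr7 was lower in both CER mice, at 181 and 86.3 CPM, and missed the threshold (adjusted p = 0.0535). Of the migratory list, 1 of 8 genes tested was called lower in CER. Of the class II and cDC1 lists none was called in either comparison. Their sums did not overlap with WT, but this was not particular to them. It also held for the cDC2, macrophage, lysosomal and immediate early lists, among others. The immediate early list summed to 9126 and 7901 CPM in WT, 4112, 4826 and 7128 in i4F and 6050 and 7304 in CER. The class II list summed to 84821 and 84484 CPM in WT, 69249, 42385 and 61530 in i4F and 48857 and 45668 in CER. The cDC1 list summed to 1977 and 1201 CPM in WT, 244, 279 and 958 in i4F and 573 and 900.4 in CER. Cd3d and Trbc1 of T cells had 0 UMIs in WT and stood at 41.2 and 38.8 and at 33.8 and 44.1 CPM in CER, and the T and NK cell list summed to 250 and 388 CPM there, against 22.7, 9.15 and 28.0 in i4F. The part of such cells in the other CER values was not tested.

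**Figure D5:**
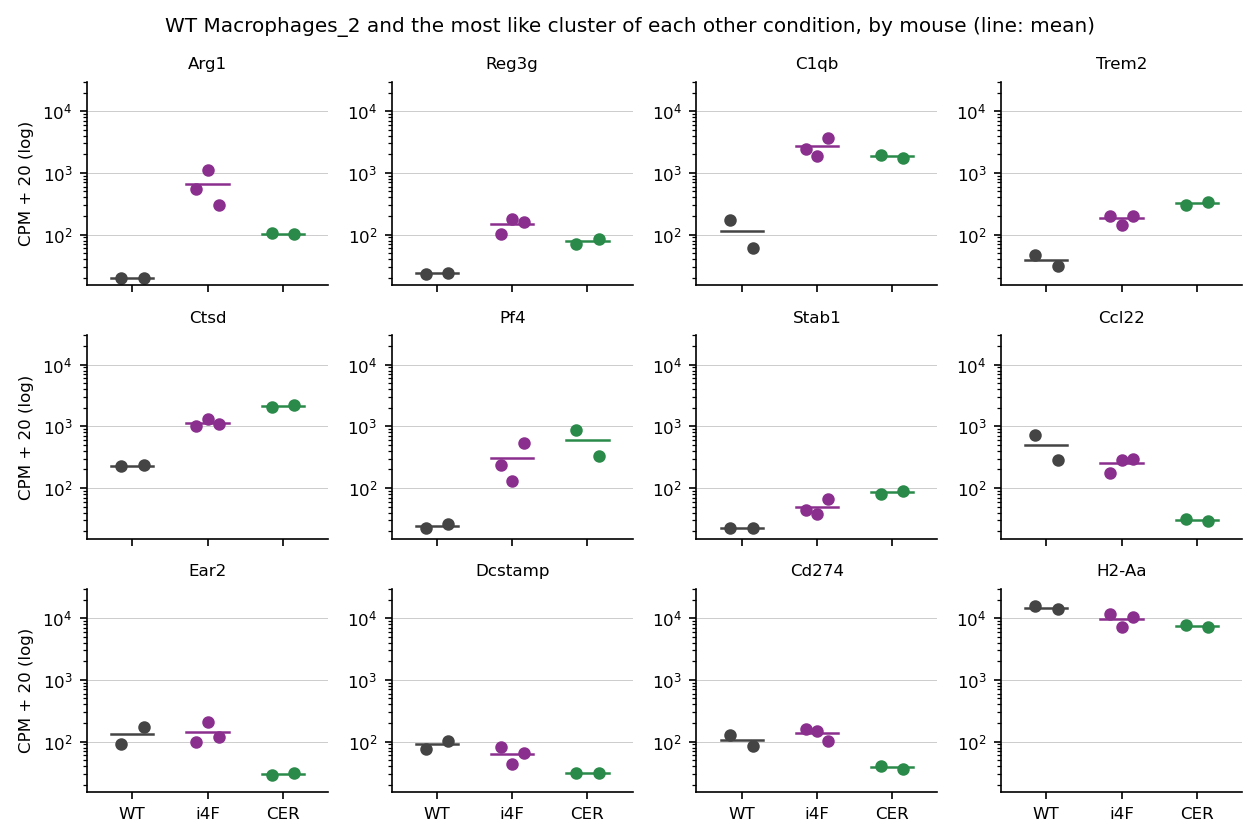
Each point is 1 mouse, the line is the mean of the mice, and the y axis gives the level in summed UMIs (CPM plus 20, log scale) in WT Macrophages_2, i4F Macrophages_3 and the CER cluster named B_lymphocytes. Arg1, C1qb, Trem2 and Ctsd lie higher in every i4F and CER mouse than in both WT mice, and Ccl22, Ear2, Dcstamp and Cd274 lie lowest in CER. These genes were named by a rule that asked for no overlap with WT in the comparison that named them.

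These counts of calls depended on single mice. Without i4F mouse 3, 251 and 180 genes were called, and without i4F mouse 1 or 2, 4 were called for i4F, with 58 for CER without i4F mouse 1. Without WT mouse 1, 14 and 16 were called, and without WT mouse 2, 31 and 69. Without CER mouse 1 or CER mouse 2, 1 gene was called for CER. For i4F, Reg3g was called under all 18 alternatives, with adjusted p up to 0.042, Ctsd under 17 of 18, Arg1 under 15 of 18, C1qb under 14 of 17, Ltc4s, which encodes leukotriene C4 synthase, under 12 of 17 and Trem2 under 10 of 18, with adjusted p up to 0.884. For CER, Ccl22 was called under 16 of 18, Trem2 under 15 of 18, C1qb under 14 of 17, Reg3g under 13 of 18 and Cd274 under 10 of 18.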

How the data were processed

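Pancreata of 7 mice were dissociated and profiled with the 10x 3′ v3 assay, and per the labels and methods the authors aligned reads with Cell Ranger to mm10 (GRCm38), removed cells with few genes or a high mitochondrial share, and clustered each condition with Seurat. The values deposited are UMI counts for every cell, and the authors' annotation gives each cell's cluster and its mitochondrial percent. The authors also ran SoupX against free RNA, but whether the deposited counts precede that step is not given in the sources used here.

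Cells were taken by the authors' cluster name. The members, gene lists and comparisons were chosen with earlier results of these data known. Counts were summed per mouse and cluster and scaled to CPM. Genes with at least 10 UMIs over both clusters were compared as log2 ratios after adding 20 CPM, and 2-fold in both mice was the limit. The mouse is the replicate, and with 2 WT mice no cluster was tested against another. Between conditions, edgeR 4.0.16 (filterByExpr, TMM, quasi-likelihood test, Benjamini-Hochberg, 0.05) was fitted over 7 mice and 3 groups, and DESeq2 1.42.0, the replicate block and other settings were alternatives. p-values measure the spread between these mice. Named genes were to be the 3 markers, up to 4 members of each list with the highest CPM and those at 0, the 12 leading genes by the ratio of the mouse nearer to 1 among genes with at least 20 UMIs, and the 6 called genes with the largest change in each direction. These called genes also had to pass a minimum mean level and to show no overlap between the mice of the compared groups. Other named genes, those of the H2-Aa division and most list examples among them, were chosen after their values were seen. A gene without a row was read as 0 UMIs, though a missing row need not mean absent RNA. None of the 12 genes of the acinar list had a row, so this list was not analysed here. Ins1, Ins2 and Gcg also had none. Intervals are exact (Clopper-Pearson, 95%) and cover counting error only, as does the floor of 3 counts. Thinned shares of acinar cells use at most 500 cells a library, drawn at random. Doublets were kept, and Scrublet (scanpy 1.11.5) was an alternative. It called under 0.5% of cells in WT mouse 1 and i4F mouse 3, so it had not worked there. Library pairs shared 3 to 39 barcodes. Scripts ran in R 4.3.3 and Python 3.11.15 and were tested on simulated data.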

Additional observations from a re-analysis of the deposited data

How the results depend on the processing

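The share of WT cells in Macrophages_2, 1.44%, was 1.91% among cells with at least 500 genes, 19.7% of immune-named cells (mean of 26.5% in WT mouse 1 and 12.9% in WT mouse 2), and 1.36% to 1.52% of all cells in single mice. Against Macrophages_1, the 165 higher and 258 lower genes became 361 and 624 with 5 CPM added, 79 and 147 with 50 CPM, and 376 to 430 and 442 to 550 in single mice. Against the C1q clusters, the 1572 (i4F) and 2025 (CER) calls became 851 and 945 with the library name series as a term, 1 and 683 with all macrophage clusters and 214 and 1033 in C1q-positive cells, and 731 to 1970 and 745 to 2396 without single mice. Folr2 in i4F turned to −0.42 with all macrophage clusters and −0.69 in C1q-positive cells, and Ccl17 to 0.031 with all macrophage clusters. Against the most similar clusters, the 7 and 37 calls became 126 and 116 with DESeq2, 447 and 515 with no filter on low counts, 29 and 15 with the library name series, 1 and 8 without cells holding C1q UMIs, 131 and 82 in cells with H2-Aa UMIs (which left out 18.75% to 33.9% of cells in WT and 1.42% to 8.05% in i4F), and 4 to 251 and 1 to 180 without single mice. The i4F calls also became 3 with both compared groups alone and 56 with doublets removed, and Trem2 in i4F turned to −0.63 without cells holding C1q UMIs and became 5.37 in cells with H2-Aa UMIs, both choices by the cells' own counts. The cause of these changes was not tested. The alternatives for the most similar clusters were chosen after seeing the data.

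Replicate numbers did not pair the mice (correlations of deviations −0.259 to 0.126). With the replicate block, the calls were 1485 and 1827 for the C1q clusters and 176 and 79 for the most similar ones, and with the caerulein numbers crossed 2292 and 216 for CER. Ratios of named genes to Macrophages_1 moved by less than the spread between the mice in 127 of 189 alternative values and by more in 62, with 0 reversed. Single named genes kept their call in 360 of 408 alternative values for the C1q clusters and in 250 of 320 for the most similar ones, lost it in 45 and 69 and reversed in 3 and 1. With 155 cells in 2 mice, genes of a few UMIs limit these comparisons.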

Other observations

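Some levels in Macrophages_2 came from single cells. Of the 567 UMIs of Mgp, a matrix protein gene of stromal cells, in WT mouse 1, 566 lay in 1 cell, and of the 107 of Dcn, which encodes decorin, 98 lay in 1 cell. All 40 UMIs of Ly6d in WT mouse 2 lay in 1 cell. Of the Il12b UMIs, 93.3% in WT mouse 1 and 90% in WT mouse 2 lay in 3 cells of each mouse, while 3 cells held 32.3% of those of Ccr7 in WT mouse 2.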
